A study of Mus musculus with 20 samples.

Results

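Immediate early genes are transcribed within minutes of a stimulus, because the factors that switch them on are already present in the cell and need only be phosphorylated. The 8 members described here are Fos, Fosb, Fosl1, Jun, Junb, Egr1, Egr2 and Myc. They were chosen by symbol, and all 8 were found among the 6025 genes of the deposited table. FOS and JUN proteins pair through leucine zippers to form AP-1, which binds DNA as a dimer. EGR1 and EGR2 are zinc finger factors of the same early wave. MYC binds E-box sequences with its partner MAX and drives genes of growth and ribosome production. In kidney these genes are known to be induced in the tubule by ischemia, toxins and growth factor signalling.

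The study profiled polyadenylated RNA from the renal cortex of wild-type C57BL/6 mice aged 8 weeks (C57BL/6J in the protocol text), with 1 library per mouse. The control group (n = 8) is labelled mock, and the series text describes it as mock and vehicle animals, which the labels do not tell apart. The injured groups were ischemia-reperfusion injury (IRI, interruption and return of renal blood flow) at 24 h (n = 4), rhabdomyolysis (muscle breakdown that releases myoglobin) at 24 h (n = 4) and cisplatin (a DNA-damaging drug toxic to the tubule) at 72 h (n = 4). The library identifiers fall into 2 ranges: controls 1 to 4 with the IRI mice, and controls 5 to 8 with the rhabdomyolysis and cisplatin mice. IRI was set against controls 1 to 4, and rhabdomyolysis and cisplatin against controls 5 to 8. These last 2 comparisons share their controls, and cisplatin also differs in its sampling time.

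Values are CPM, that is reads scaled to an effective library size of 6.07 to 10.6 M reads, and each library held 3.48 to 5.396 M reads in the table. Every one of the 6025 genes had a mean 1.5-fold or more away from the control mean in 1 or more injuries. The table therefore holds changed genes, members included, and shares of called genes are high in the comparisons of an injury with controls. The 6 proximal tubule markers, which define the labelled tissue, summed to 7946 to 12110 CPM in the controls and to 1183 to 2977 CPM in the injured mice. In bulk tissue, fewer cells of a type and less RNA per cell cannot be told apart. Markers of other cells also moved with the injuries. The 5 neutrophil markers in the table (of 6) summed to 2.82 to 5.11 CPM in the controls, 13.6 to 28.2 in IRI, 25.3 to 49.1 in rhabdomyolysis and 21.9 to 39.8 in cisplatin. The 6 macrophage markers in the table (of 7) summed to 78.6 to 110.01, 116 to 149, 117 to 245 and 205 to 288 CPM in the same order. Of these, Csf1r went the other way, from a mean of 51.7 CPM in the controls to 16.1, 28.7 and 29.5. The 3 fibroblast and smooth muscle markers (of 4) summed to 49.3 to 89.7, 200.1 to 245, 223 to 550.5 and 97.7 to 234 CPM, and the 3 endothelial markers (of 5) to 81.1 to 197, 170.3 to 206, 362 to 452 and 223 to 309 CPM. The 3 red cell markers summed to 545 to 1802, 561 to 756, 182 to 267 and 3.46 to 16.4 CPM. Their part in the results below was not tested. No marker in these lists was at 0 in every library of a group, and none of the 3 skeletal muscle markers was in the table.

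Since members moved in the same direction, the bases just upstream of the start are shown for 4 of them, to set out which classical response motifs lie there. RefSeq windows on GRCm38.p6 were found for 5 members (Fos, Fosb, Jun, Junb and Egr2), and the 250 bases before the start were searched on both strands for TGACTCA (the AP-1 site), TGACGTC (the core of the cAMP response element), CACGTG (the E-box bound by MYC), GCGTGGG and GCGGGGG (cores of EGR sites) and the CArG box bound by SRF. Capitals mark matches. Windows lie at chr12:85473640-85473889 on the plus strand for Fos, chr7:19310046-19310295 on the minus strand for Fosb, chr8:84978749-84978998 on the minus strand for Junb and chr10:67537619-67537868 on the plus strand for Egr2, each printed 5′ to 3′ towards the start. The Egr2 window precedes an internal start and lies between exons of the longer Egr2 transcripts.
Fos: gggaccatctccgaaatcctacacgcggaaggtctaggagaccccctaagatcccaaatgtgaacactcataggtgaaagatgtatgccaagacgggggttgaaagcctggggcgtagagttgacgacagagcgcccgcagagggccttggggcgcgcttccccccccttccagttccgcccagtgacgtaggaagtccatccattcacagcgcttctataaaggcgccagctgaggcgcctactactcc
Fosb: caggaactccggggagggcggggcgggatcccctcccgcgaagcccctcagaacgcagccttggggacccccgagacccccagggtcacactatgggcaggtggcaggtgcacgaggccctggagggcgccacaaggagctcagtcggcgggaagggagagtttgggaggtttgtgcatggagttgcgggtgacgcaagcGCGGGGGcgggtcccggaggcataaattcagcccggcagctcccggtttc
Junb: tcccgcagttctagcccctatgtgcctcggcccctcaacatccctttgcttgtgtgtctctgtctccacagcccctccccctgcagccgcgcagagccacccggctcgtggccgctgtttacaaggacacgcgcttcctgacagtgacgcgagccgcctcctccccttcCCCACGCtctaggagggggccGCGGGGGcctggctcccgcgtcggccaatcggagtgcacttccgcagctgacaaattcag
Egr2: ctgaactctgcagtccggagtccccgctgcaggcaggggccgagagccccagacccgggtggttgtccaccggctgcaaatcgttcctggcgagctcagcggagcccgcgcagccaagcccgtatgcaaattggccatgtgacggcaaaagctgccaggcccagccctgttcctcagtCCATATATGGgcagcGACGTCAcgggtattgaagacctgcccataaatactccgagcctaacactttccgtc

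The Egr2 window held a CArG box 72 to 63 bases before the start and a TGACGTC match 57 to 51 bases before it. Junb held GCGTGGG (81 to 75 bases before the start) and GCGGGGG (60 to 54), and Fosb held GCGGGGG (50 to 44). The windows of Fos and Jun held no exact match to the motifs searched. Variants of these motifs and sites further upstream were not searched, so the absence of a match does not show that such elements are lacking. For Egr2, 5 windows with separate starts were listed, of which 3 overlap and share the CArG box and the TGACGTC match printed above. Of the other two, the window at the annotated gene start held CACGTG and GCGGGGG, and the second held another CArG box. Of all 32851 windows of this length, many of which overlap, 1.47% held a CArG box, 2.78% TGACGTC, 4.30% GCGTGGG, 9.63% GCGGGGG, 4.46% TGACTCA and 6.02% CACGTG. A match is a description of letters and not evidence of binding.

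Against the matched controls, 7 of the 8 members passed as higher in IRI, and all 8 passed as higher in rhabdomyolysis and in cisplatin (limma on log2(CPM + 1), adjusted p under 0.05 over 5672 genes tested). No member was called lower against controls. Over the 8 controls, Fos, Fosb, Fosl1 and Egr2 averaged 0.628, 0.174, 0.016 and 0.068 CPM. These 4 met the minimum mean of 1 CPM for testing only through the injured mice. Their direction was therefore largely fixed by the filter, and the counts of members called are a description. Among all genes tested, 40.6% were called higher for IRI, 48.8% for rhabdomyolysis and 47.8% for cisplatin, and 40.1%, 46.5% and 44% were called lower. In either direction, 80.7%, 95.3% and 91.8% were called. Every injured library lay above every matched control for 7 members in IRI and for 8 in the other injuries, which held for 34.4% of all genes with IRI, 44.7% with rhabdomyolysis and 44.4% with cisplatin. Fosb in IRI was the exception to both counts. The median log2 change of the 8 members was 1.83 for IRI, 3.67 for rhabdomyolysis and 3.49 for cisplatin, beside 0.08, 0.31 and 0.30 over all genes tested. Scaling moved the median of all genes, to 0.44 in rhabdomyolysis with 75th percentile scaling and to 0.03 in cisplatin after quantile normalization, where the members' medians were 3.81 and 3.18.

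**Figure D1:**
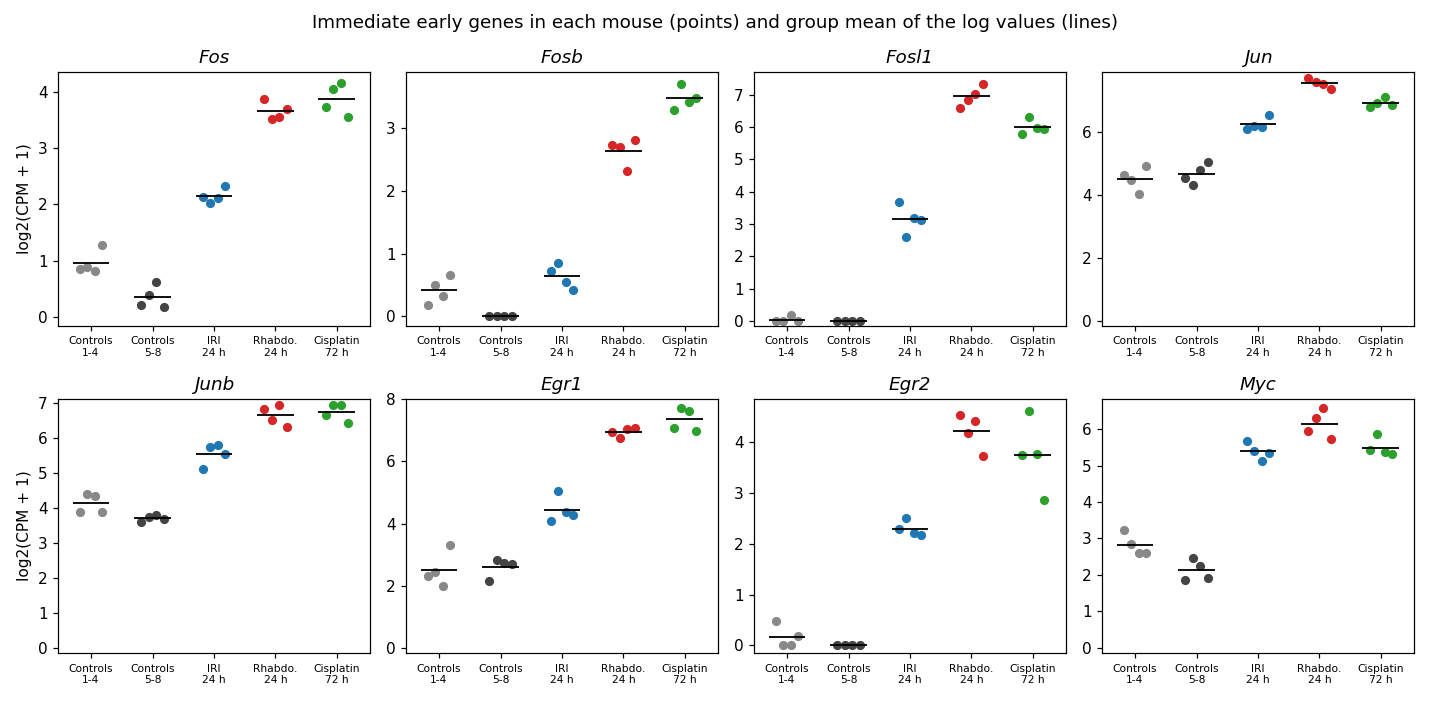
Log2(CPM + 1) of the 8 members in each of the 20 mice (points) with the mean of the log values in each group (lines); each panel has its own vertical scale. The IRI points of Fosb overlap controls 1 to 4, and those of Myc overlap cisplatin. The IRI mice lie in another identifier range than the other injured mice.

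Fos encodes the founding partner of JUN in AP-1 (chr12:85473890-85477273, plus strand). It was nearly silent in the uninjured cortex, at 0.807, 0.845, 0.774 and 1.44 CPM in controls 1 to 4 and 0.165, 0.321, 0.534 and 0.138 CPM in controls 5 to 8, which is 1 to 10 reads per library. In IRI the 4 mice had 3.41, 3.06, 3.33 and 4.00 CPM (23 to 35 reads). All 4 stood above all 8 controls, and their spread was small (3.45 CPM ± 0.397, SD, n = 4). Rhabdomyolysis mice reached 13.6, 10.4, 10.7 and 11.9 CPM, and cisplatin mice 12.3, 15.5, 16.8 and 10.7 CPM. These last groups overlapped each other and not the IRI group. The mean rose 3.57-fold in IRI, 40.3-fold in rhabdomyolysis and 47.7-fold in cisplatin over matched controls, with log2 changes of 1.19, 3.30 and 3.51 (SE 0.16 each; limma adjusted p 1.36e-06, 5.17e-14 and 2.45e-14). Controls 5 to 8 held 8 Fos reads in all, and the exact 95% counting intervals of the ratio of summed reads were 19.9 to 92.0 for rhabdomyolysis and 23.4 to 108 for cisplatin. The log2(CPM + 1) scale understates the change of genes this low in controls. Log2 changes are therefore compared between injuries, and their order between genes describes positions on this scale only.

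Fosb, whose product also pairs with JUN proteins and has a long-lived truncated form that gene-level values do not separate (chr7:19302696-19310051, minus strand), was the one member that did not pass in IRI. Controls 1 to 4 had 0.135, 0.422, 0.258 and 0.575 CPM, from 1 to 4 reads, and the IRI mice had 0.656, 0.799, 0.459 and 0.343 CPM, from 3 to 6 reads. The groups overlapped, with 2 of the 4 IRI libraries above their controls. The log2 change was 0.22 (SE 0.16, 95% interval −0.11 to 0.54, limma adjusted p 0.204), from 18 reads over the 4 IRI libraries and 10 over their controls. Set against all 8 controls instead, the change was 0.43 and passed (limma adjusted p 0.0142). No Fosb read was found in controls 5 to 8, which allows up to 0.111 CPM over that group of 4 (3 reads, counting error only). Rhabdomyolysis mice had 5.67, 5.52, 3.99 and 6.02 CPM. Cisplatin mice had 8.75, 12.1, 9.72 and 10.2 CPM. Relative to that limit, the mean was at least 47.8-fold higher in rhabdomyolysis. For cisplatin it was at least 91.8-fold higher. On the log2 scale the changes were 2.64 and 3.48 (SE 0.16 each; limma adjusted p 1.00e-12 and 1.54e-14).

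Fosl1, which encodes FRA-1, a FOS family protein that lacks the transactivation domain of FOS and is itself a known AP-1 target (chr19:5447547-5455946, plus strand), was all but absent from uninjured cortex. A single read was found in the 8 controls together, in control 3. The IRI mice had 11.9, 5.06, 8.04 and 7.66 CPM (38 to 91 reads). In rhabdomyolysis the values were 95.01, 113, 130.2 and 161 CPM, with 1005 to 1417 reads, and in cisplatin 54.4, 78.4, 61.4 and 60.1 CPM, with 2414 reads in all. The 3 injured groups did not overlap one another. Against controls 1 to 4 the ratio in IRI was 239 with a counting interval of 42.5 to 9462 (exact, 95%), because 1 read stands behind the controls. Against the 3-read limit of controls 5 to 8, the rhabdomyolysis mean was at least 1125-fold higher. The cisplatin mean was at least 573-fold higher. The log2 changes were 3.10, 6.95 and 6.00 (SE 0.19 each; limma adjusted p 5.29e-12, 3.80e-18 and 4.48e-17).

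Jun, the main AP-1 partner and a target of JNK signalling (chr4:95049034-95052222, minus strand), was already expressed in uninjured cortex. Controls 1 to 4 had 23.7, 21.4, 15.5 and 29.2 CPM, and controls 5 to 8 had 22.6, 19.1, 27.0 and 32.0 CPM. The 2 sets of controls overlapped almost entirely. IRI mice had 67.3, 72.6, 71.1 and 91.5 CPM, cisplatin mice 110.3, 121, 138 and 115 CPM, and rhabdomyolysis mice 212, 192, 183 and 166 CPM. The order was therefore IRI, cisplatin and rhabdomyolysis, with no overlap between neighbours. Folds over matched controls were 3.37, 4.81 and 7.48 in that order, and the log2 changes were 1.73, 2.24 and 2.87 (SE 0.16 each; limma adjusted p 5.08e-09, 3.90e-11 and 4.16e-13). The antisense gene Junos overlaps Jun. The kit kept strand, but whether the counting used it is not given in the sources used here.

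Junb encodes a JUN protein that often acts against JUN on shared promoters (chr8:84974484-84978718, minus strand). Its level was 13.9, 20.3, 19.2 and 13.7 CPM in controls 1 to 4 and 11.0, 12.3, 12.8 and 11.9 CPM in controls 5 to 8. The IRI mice had 33.7, 52.7, 55.1 and 45.2 CPM, all above all 8 controls. The rhabdomyolysis values of 112, 90.04, 122 and 78.8 CPM and the cisplatin values of 99.6, 121, 122 and 84.8 CPM overlapped throughout. Mean folds came to 2.79 (IRI), 8.38 (rhabdomyolysis) and 8.89 (cisplatin), with log2 changes of 1.42, 2.95 and 3.04 (SE 0.17 each; limma adjusted p 1.78e-07, 5.39e-13 and 4.91e-13).

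Egr1, a zinc finger factor induced through SRF and its ETS partners, was the member with the most reads in the cisplatin libraries (6287 in all). Controls 1 to 4 had 4.04, 4.50, 2.97 and 8.92 CPM, and controls 5 to 8 had 3.46, 6.09, 5.74 and 5.52 CPM. The IRI mice had 15.9, 32.4, 20.0 and 18.5 CPM. Rhabdomyolysis mice had 122, 108, 131 and 134 CPM, a narrow spread (124 ± 11.8, SD, n = 4). Cisplatin mice had 134, 209, 197 and 126 CPM, a wider one (167 ± 42.4, SD, n = 4) that overlaps it. The mean rose 4.25-fold in IRI, 23.8-fold in rhabdomyolysis and 32.0-fold in cisplatin, with log2 changes of 1.93, 4.35 and 4.74 (SE 0.24 each; limma adjusted p 3.40e-07, 3.04e-13 and 1.01e-13).

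Egr2, better known for its part in myelination and in myeloid and lymphoid cells (chr10:67535475-67542188, plus strand), was absent from 6 of the 8 control libraries. Controls 1 and 4 had 3 reads and 1 read. The IRI mice had 3.93, 4.66, 3.67 and 3.55 CPM (30 to 35 reads), a tight group. Rhabdomyolysis mice had 22.1, 17.1, 20.4 and 12.4 CPM. Cisplatin mice had 12.5, 23.6, 12.6 and 6.29 CPM, the widest spread relative to its mean of any member in any injured group (13.8 ± 7.21, SD, n = 4). The mean was 28.9-fold that of controls 1 to 4 in IRI, where 4 reads stand behind the controls (ratio of summed reads 28.7, exact 95% interval 10.9 to 107). Control 1 holds 3 of the 4 reads, and without it the ratio was 85.7 (interval 15.1 to 3409), from 1 control read. Relative to the limit of controls 5 to 8, it was at least 162-fold higher in rhabdomyolysis. In cisplatin it was at least 124-fold higher. The log2 changes were 2.13, 4.22 and 3.75 (SE 0.25 each; limma adjusted p 1.23e-07, 7.48e-13 and 8.36e-12).

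Myc lies at chr15:61985391-61990374 on the plus strand and was expressed in all 8 controls. Controls 1 to 4 had 8.34, 6.19, 5.03 and 5.03 CPM, and controls 5 to 8 had 2.64, 4.49, 3.74 and 2.76 CPM. The IRI values were 50.2, 41.2, 33.8 and 39.9 CPM. Cisplatin gave 41.8, 57.6, 40.3 and 38.7 CPM, overlapping IRI, and rhabdomyolysis gave 60.6, 78.8, 95.2 and 52.3 CPM. The mean rose 6.71-fold in IRI, 21.1-fold in rhabdomyolysis and 13.1-fold in cisplatin. The log2 changes were 2.57, 4.03 and 3.37 (SE 0.19 each; limma adjusted p 1.62e-10, 3.21e-14 and 7.29e-13).

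**Figure D2:**
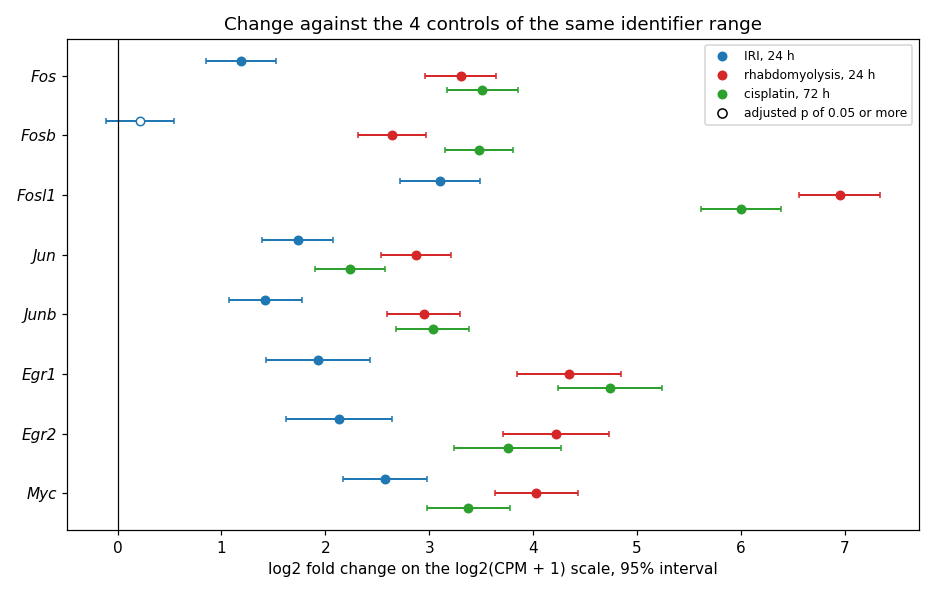
Log2 fold change on the log2(CPM + 1) scale of each member in each injury against the 4 controls of its identifier range, with 95% intervals from limma; open points did not pass an adjusted p of 0.05. The only open point is Fosb in IRI (0.22), and the furthest to the right is Fosl1 in rhabdomyolysis (6.95).

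The controls of the 2 identifier ranges were not alike for several members. In Fos, Fosb, Junb and Myc, each of controls 1 to 4 lay above each of controls 5 to 8, which held for 2.01% of all genes tested. The log2 differences were 0.61 for Fos, 0.42 for Fosb, 0.43 for Junb and 0.70 for Myc, with unadjusted p-values from limma of 0.00125, 0.0146, 0.0193 and 0.00158. None passed after adjustment (limma adjusted p 0.346, 0.518, 0.535 and 0.346), and no gene in the table did (0 called, 454 genes at an unadjusted p under 0.05; edgeR also called 0, with 420 at an unadjusted p under 0.05). With a pseudocount of 0.1 CPM, Fos (limma adjusted p 0.0438) and Fosb (0.0141) passed. Whether the ranges mark separate batches is not stated in the labels. The IRI changes of these 4 members are measured from the higher set. Its part in the differences between injuries was not tested.

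Differences between the injuries were then tested. IRI was compared through its effect, since it lies in another identifier range. All 8 members had a smaller effect in IRI than in rhabdomyolysis and passed (23.4% of all genes were called lower here, 28.6% higher and 52% in either direction). The log2 difference was −1.14 for Jun (SE 0.23, limma adjusted p 3.39e-04) and −3.85 for Fosl1 (SE 0.26, limma adjusted p 4.71e-10). Fos differed by −2.11, Fosb by −2.43, Egr1 by −2.42, Egr2 by −2.09, Junb by −1.52 and Myc by −1.45. On the recovered reads, edgeR called 7 of the 8, with Fosl1, a gene with 1 read in all controls, not passing (log2 difference −5.64, edgeR adjusted p 0.1002).

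Against cisplatin, 7 members had a smaller effect in IRI and passed (16.8% of all genes were called lower, 13.5% higher and 30.3% in either direction). The log2 difference was −3.26 for Fosb (SE 0.22, limma adjusted p 5.15e-10). It was −2.32 for Fos, −2.90 for Fosl1, −1.61 for Junb, −2.81 for Egr1 and −1.62 for Egr2. Myc differed by −0.80 (SE 0.27, limma adjusted p 0.0296). That call was lost without control 1, 5 or 8, cisplatin mouse 2 or IRI mouse 3, one at a time (limma adjusted p 0.0625 to 0.0742). Jun did not pass (−0.51, 95% interval −0.99 to −0.03, limma adjusted p 0.0976), but did without control 3 (0.0211) or control 8 (0.0445). In edgeR, 5 of the 8 passed, and Fosl1 (log2 difference −4.67, edgeR adjusted p 0.198) and Egr2 (−5.14, 0.0659) were not called, nor was Jun. For the share of all genes called higher, scaling mattered, with 44.5% of calls higher in IRI as deposited and 55.7% after quantile normalization.

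Rhabdomyolysis and cisplatin could be compared directly, within 1 identifier range. Here 3 members were called higher in rhabdomyolysis and 1 lower, which is near the share of all genes called in either direction (54.1%). Fosl1 (log2 difference 0.95, SE 0.19, limma adjusted p 2.03e-04), Jun (0.63, SE 0.16, 0.00236) and Myc (0.65, SE 0.19, 0.00680) were higher in rhabdomyolysis, beside 21.4% of all genes. Fosb was higher in cisplatin (−0.83, SE 0.16, limma adjusted p 1.38e-04), beside 32.7%, and 54.1% of genes were called in either direction. All rhabdomyolysis libraries lay above all cisplatin libraries for Fosl1 and Jun, as for 18.8% of all genes. For Fosb each cisplatin library lay above each rhabdomyolysis library, and the share of all genes in that direction was not computed. Fos (−0.21, 95% interval −0.55 to 0.13), Junb (−0.09, −0.44 to 0.26), Egr1 (−0.39, −0.89 to 0.10) and Egr2 (0.47, −0.05 to 0.98) were not separated, with limma adjusted p-values of 0.287, 0.679, 0.172 and 0.117. The sign of the Junb difference turned with scaling. Egr2 passed after quantile normalization (0.61, limma adjusted p 0.0402), without cisplatin mouse 2 (0.76, 0.00606) and without rhabdomyolysis mouse 4 (0.63, 0.0458). Over all genes, 39.6% of the calls were higher in rhabdomyolysis as deposited and 51.7% after quantile normalization. The injuries were sampled at 24 h and 72 h, and time and injury cannot be told apart here.

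**Figure D3:**
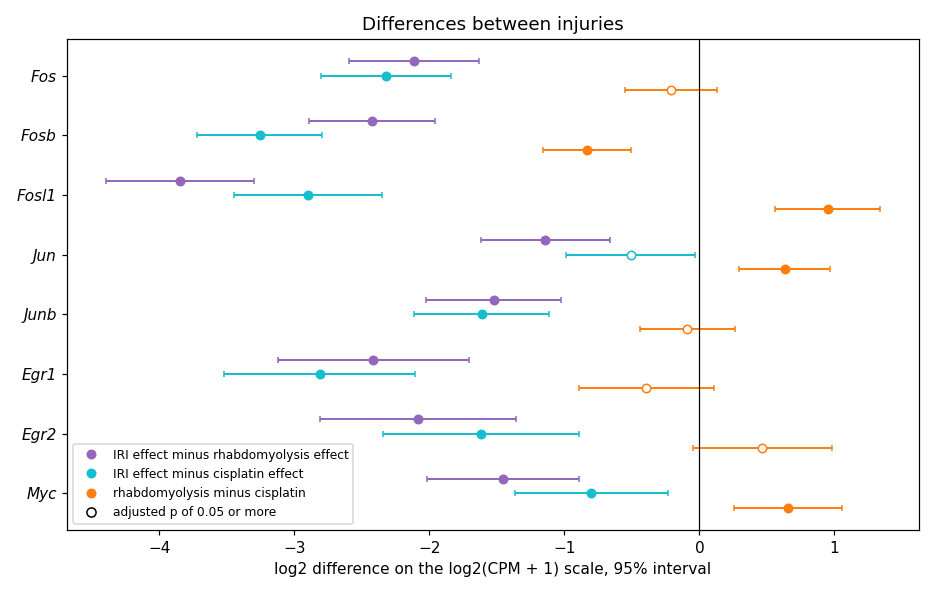
Log2 differences between injuries on the log2(CPM + 1) scale for each member, with 95% intervals from limma; IRI is compared as a difference of effects and open points did not pass an adjusted p of 0.05. Both IRI differences lie left of 0 for each member, while rhabdomyolysis minus cisplatin runs from −0.83 for Fosb to 0.95 for Fosl1.

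Divided by exon length (1.81 kb for Junb to 4.48 kb for Egr1, GENCODE M21), levels could be set side by side between members. In both sets of controls Jun and Junb had the highest levels. Junb had 9.26 ± 1.93 CPM per kb and Jun 7.04 ± 1.78 in controls 1 to 4 (SD, n = 4), with overlapping libraries, and Myc was next at 2.26 ± 0.574. Fos had 0.458 ± 0.150 and Fosl1 0.0173 ± 0.0346 CPM per kb there. In controls 5 to 8 the means of Jun (7.89 ± 1.76) and Junb (6.65 ± 0.422) stood in the other order, again overlapping, with Myc at 1.25 ± 0.322 and Fos at 0.137 ± 0.0864. In IRI the order was Junb (25.8 ± 5.33), Jun (23.7 ± 3.40), Myc (15.2 ± 2.50), Egr1 (4.84 ± 1.63) and Fosl1 (4.39 ± 1.52), and Junb overlapped Jun as Egr1 overlapped Fosl1. In rhabdomyolysis Fosl1 had the highest mean, at 67.0 ± 15.01 CPM per kb, not apart from Jun (59.1 ± 5.97), while Jun in turn overlapped Junb (55.7 ± 11.0). In cisplatin Junb led at 59.05 ± 9.91, apart from Jun (37.9 ± 3.71), which overlapped Egr1 (37.2 ± 9.45), and Egr1 overlapped Fosl1 (34.1 ± 5.55). Among the 3 FOS genes that are members, Fosl1 had the highest mean per kb in every injury. Fosl2, also a FOS family gene, is not a member and was not scaled by exon length. Its means were 49.3 CPM in IRI, 92.8 in rhabdomyolysis and 96.8 in cisplatin, beside 8.17, 125 and 63.6 CPM for Fosl1. Fos had 1.64 ± 0.188 CPM per kb in IRI, 5.54 ± 0.683 in rhabdomyolysis and 6.55 ± 1.34 in cisplatin. Fosb had 0.149 ± 0.0536, 1.40 ± 0.237 and 2.69 ± 0.373.

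**Figure D4:**
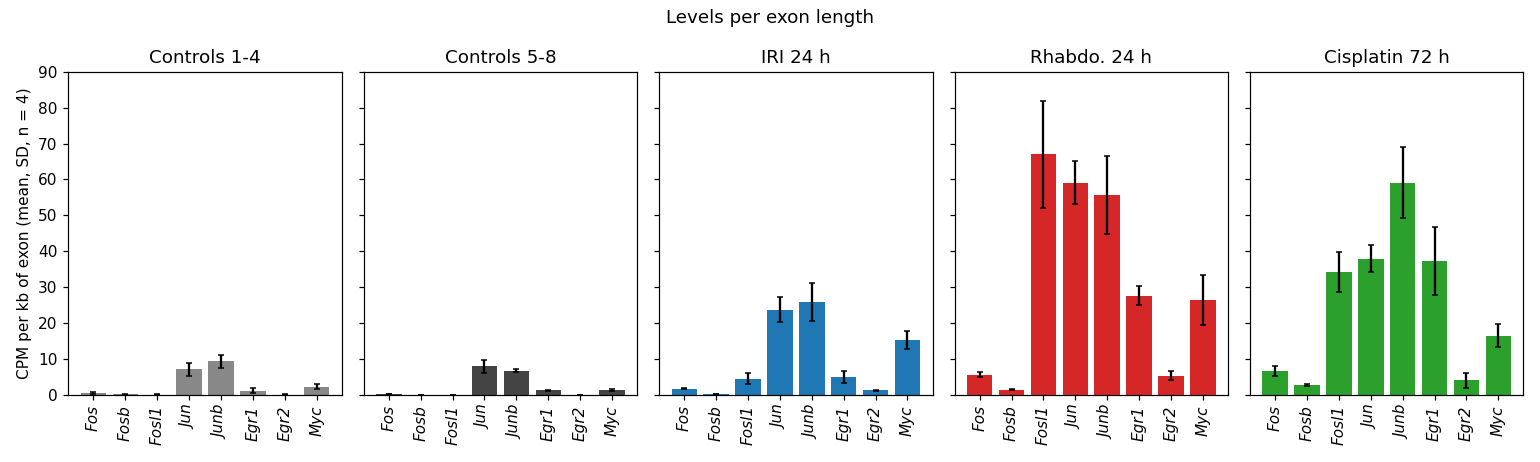
Mean CPM per kb of exon of each member in the 5 sets of 4 mice, with the SD (n = 4), on a linear axis from 0. Jun and Junb are the tallest bars in the controls and in IRI, Fosl1 reaches 67.0 in rhabdomyolysis, and Junb reaches 59.05 in cisplatin.

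Mice of one group did not rank alike across the members. Cisplatin mouse 2 was the highest of its group for 5 members (Fosb, Fosl1, Egr1, Egr2 and Myc), and cisplatin mouse 4 the lowest for 5 (Fos, Junb, Egr1, Egr2 and Myc). Control 4 was the highest of its range for Fos, Fosb, Jun and Egr1, and control 3 the lowest for Fos, Jun, Egr1, Myc and, tied at 0 with control 2, Egr2. In rhabdomyolysis, mouse 4 was highest for Fosl1, Fosb and Egr1 and lowest for Jun, Junb, Egr2 and Myc. Over the deviations of the 20 libraries from their 5 group means, Pearson r between 2 members ran from −0.35 (Fosl1 and Junb) to 0.56 (Fos and Egr1), with a median of 0.09 over the 28 pairs. These values are descriptions, and libraries share depth and scaling across members.

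The genes whose log2(CPM + 1) profile over the 20 libraries was most like each member were found by Pearson r, as a description over libraries that share their groups. They were Hbegf (0.987), Ier5 (0.984) and Cdkn1a (0.980) for Fos, and Ier5 (0.987), Spsb1 (0.987) and Hbegf (0.986) for Egr1. Fosl1 was closest to Mapk6 (0.996), Tubb6 (0.995) and Nrcam (0.994), and Fosb to Fetub (0.979), Cldn23 (0.974) and Gadd45b (0.973). For Jun they were Adamts1 (0.987), F2rl1 (0.983) and Dusp8 (0.982), and for Junb they were Lmna (0.981), Tpm3 (0.981) and Krt18 (0.980). Egr2 was closest to Esyt1 (0.990), Adamts4 (0.986) and D730005E14Rik (0.986), and Myc to Anxa3 (0.980), Mvp (0.980) and Vat1 (0.978). With group means removed, Mapk6 was still the closest to Fosl1 (0.869), ahead of 3300005D01Rik (0.816) and Krt76 (0.812). In that measure Egr2 was closest to the chemokine gene Ccl11 (0.886), the matrix gene Tnc (0.881) and the myeloid receptor gene Trem1 (0.877), and Fos to Camk2b (0.833), Cxcr4 (0.758) and Kctd1 (0.758). The closest to Jun were Kif18a (0.825), Dusp10 (0.723) and Daam1 (0.713), to Junb Garnl3 (0.783), Mcm4 (0.778) and Prr15 (0.766), and to Egr1 Hn1l (0.775), Foxm1 (0.775) and Sipa1l2 (0.759). Fosb was closest to 2810013P06Rik (0.790), Pkib (0.747) and Tgfb2 (0.688), and Myc to Sema3e (0.768), Dkc1 (0.741) and B3galnt2 (0.734).

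Other genes of the early wave were taken from a list. Of 32 further immediate early and AP-1 genes listed, 25 were in the table and tested. In IRI 18 of the 25 were called higher and 0 lower, beside 40.6% and 40.1% of all genes, with a median log2 change of 0.86 beside 0.08. In rhabdomyolysis and in cisplatin all 25 were called higher, beside 48.8% and 47.8% of all genes, with medians of 2.16 and 2.08 beside 0.31 and 0.30. Genes listed but not in the table are not analysed here, and the table holds no gene that stayed within 1.5-fold in each injury. Among AP-1 relatives, Atf3 (a stress-induced bZIP factor) went from a mean of 0.78 and 0.81 CPM in the 2 sets of controls to 12.8 with IRI, 92.7 with rhabdomyolysis and 34.6 with cisplatin, and had log2 changes of 2.96, 5.70 and 4.29. Maff, a small MAF factor, changed by 2.61, 4.78 and 3.61. Fosl2, the FRA-2 gene, rose to 49.3 CPM in IRI, 92.8 in rhabdomyolysis and 96.8 in cisplatin from 14.5 and 15.9, and Jund, the constitutive JUN gene, had log2 changes of 0.40, 0.77 and 0.73.

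Values within that list varied between injuries. The secreted matrix signal Cyr61 (Ccn1) had log2 changes of 3.88 with IRI, 3.67 with rhabdomyolysis and 4.47 with cisplatin. Btg2, an antiproliferative gene also known as a p53 target, reached 391 CPM in cisplatin and 97.8 in rhabdomyolysis (log2 difference −1.998, limma adjusted p 1.73e-08). Of the 25, 6 were called higher in rhabdomyolysis than in cisplatin and 5 lower, beside 21.4% and 32.7% of all genes. The 6 were Atf3, Maff, Mafk, Ier3, Klf6 and Gadd45a, and the 5 were Zfp36l1, Btg2, Cyr61, Gadd45b and Arc. In IRI the genes that did not pass were Jdp2 (log2 change 0.34), Mafk (−0.03), Nr4a2 (0.41), Ctgf (0.32), Gadd45b (0.24), Gadd45g (0.22) and Arc (0.26). Nr4a1, an orphan nuclear receptor of the early wave, passed in each injury, at 0.86, 2.08 and 2.74 in IRI, rhabdomyolysis and cisplatin. So did Ier2 (1.17, 2.16 and 1.95), Ier5 (1.39, 2.81 and 2.94), Klf2 (0.54, 1.24 and 1.16), Klf4 (1.75, 2.39 and 2.18), Klf10 (0.83, 1.35 and 1.83), Zfp36 (0.42, 0.99 and 1.37) and Sgk1 (0.57, 1.97 and 1.74). By adjusted calls, the IRI effect was lower than that of rhabdomyolysis for 16 of the 25 (23.4% of all genes) and lower than that of cisplatin for 17 (16.8%), and no gene of the list was called higher in IRI in either comparison (28.6% and 13.5% of all genes).

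**Figure D5:**
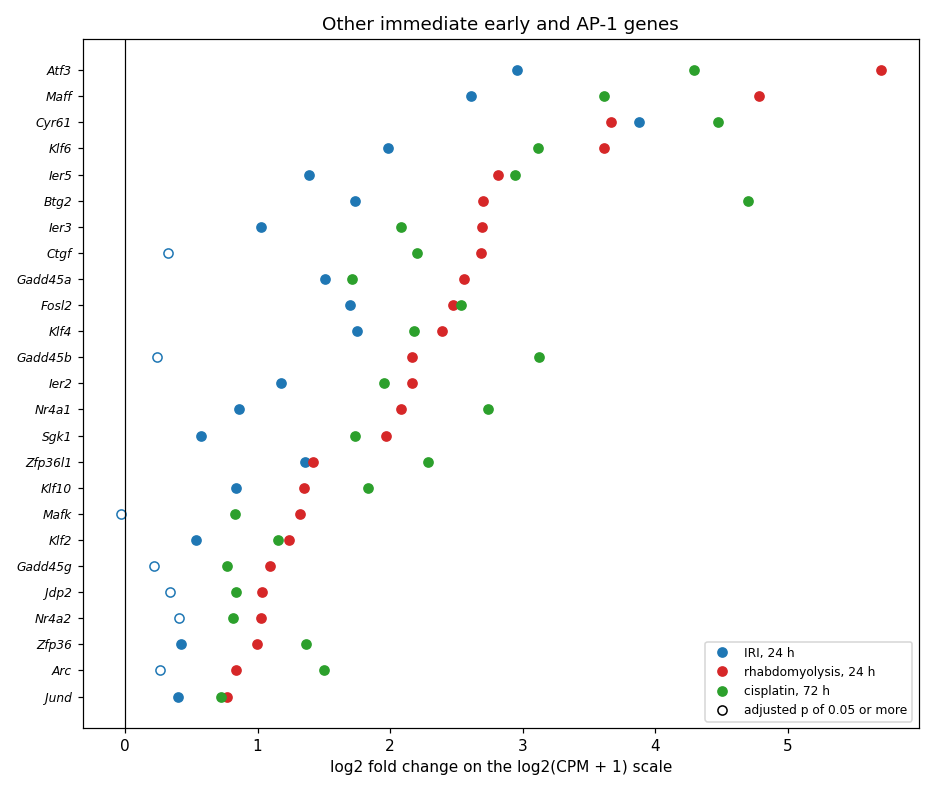
Log2 fold changes on the log2(CPM + 1) scale of the 25 other immediate early and AP-1 genes in the table, ordered by the change in rhabdomyolysis; open points did not pass an adjusted p of 0.05. The 7 open points are all IRI, and Atf3 in rhabdomyolysis (5.70) lies furthest to the right.

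The kinases upstream and the feedback inhibitors of this response were described next. Of 33 genes listed, 17 were tested, and 14 were higher and 2 lower in IRI, while 15 were higher and 2 lower in each of the other injuries (medians 0.55, 1.12 and 1.12). Over all genes, 40.6%, 48.8% and 47.8% were called higher and 40.1%, 46.5% and 44% lower in IRI, rhabdomyolysis and cisplatin, with medians of 0.08, 0.31 and 0.30. Of the 6 MAP kinase phosphatase genes tested, Dusp5 had log2 changes of 2.01, 4.07 and 3.07 in IRI, rhabdomyolysis and cisplatin and Dusp8 of 2.00, 3.60 and 2.72. The 2 that fell were Map2k6, an activator of p38 (−1.18, −2.23 and −1.27), and Mapk14, p38 alpha itself (−0.48, −1.11 and −0.88).

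Genes known as AP-1 or EGR targets were mostly higher. Of 25 listed, 22 were tested, and 20 were higher with IRI, 22 with rhabdomyolysis and 22 with cisplatin, with 0 lower and medians of 1.63, 2.74 and 2.39. The shares called higher over all genes were 40.6%, 48.8% and 47.8%, and the medians 0.08, 0.31 and 0.30. Timp1, a metalloproteinase inhibitor, went from 0.27 and 0.26 CPM in the 2 sets of controls to 19.7 with IRI, 116 with rhabdomyolysis and 43.1 with cisplatin. Spp1, osteopontin, had log2 changes of 4.42, 4.67 and 3.75. Mmp10, a stromelysin with no read in any control, reached a mean of 59.8 CPM in rhabdomyolysis, 7.56 in cisplatin and 0.26 in IRI, where it did not pass (log2 change 0.32). Other pathways regulate these genes too, and the list was not chosen independently of the data.

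MYC acts within a network of partners and antagonists that share MAX or its relatives. Of 16 network genes listed, 6 were tested. In IRI 2 of them were higher and 0 lower, in rhabdomyolysis 3 higher and 2 lower, and in cisplatin 4 higher and 2 lower. Over all genes, 40.6% were called higher and 40.1% lower in IRI, 48.8% and 46.5% in rhabdomyolysis, and 47.8% and 44% in cisplatin. With 6 genes, the counts are given as a description. Mlxipl, the glucose-responsive ChREBP gene (−2.31 in rhabdomyolysis and −1.64 in cisplatin), and Mxi1, a MYC antagonist (−1.43 and −0.82), were the genes that fell. Fbxw7, which targets MYC for degradation, rose by 1.303 on the log2 scale in cisplatin, Mycn by 0.62, and Mlxip (0.63 and 0.93) and Ruvbl2 (0.52 and 0.94) led in IRI and rhabdomyolysis. Of 26 genes known as MYC targets, 17 were tested, with 14 higher and 0 lower in IRI and 16 higher and 1 lower in rhabdomyolysis and in cisplatin (medians 0.54, 1.47 and 0.80). Over all genes, 40.6%, 48.8% and 47.8% were called higher. The nucleolar genes Nop58 (0.86, 2.61 and 1.53) and Gnl3 (0.67, 1.99 and 1.09) and the pyrimidine synthesis gene Cad (1.22, 1.88 and 1.77) are examples. The transferrin receptor gene Tfrc had log2 changes of 1.99, 0.68 and 0.42. The one that fell was Odc1, the polyamine synthesis enzyme and a classical MYC target (−1.15 in rhabdomyolysis and −1.19 in cisplatin). Between rhabdomyolysis and cisplatin, 13 of the 17 were called higher in rhabdomyolysis and 0 lower, beside 21.4% and 32.7% of all genes. The median difference was 0.54, beside −0.09 over all genes. Other pathways regulate these target genes as well, the list was not chosen independently of the data, and the part of Myc was not tested.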

How the data were processed

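Kidney cortex RNA of 20 mice was analysed from 1 table of CPM values that the authors deposited. Per the submitters' processing notes, FastQC, Bowtie2 2.1.0, RSEM 1.2.15 and edgeR were used with GRCm38 (mm10), without roles or filters. Per the file headers, columns carry library identifiers, which were matched to the samples' titles and descriptions. The CPM denominator is not given in the sources used here. Values were whole multiples of 1 step per library (100% within 0.001 reads), so read counts were recovered from the deposited CPM values. In cisplatin mouse 2 the step lies near 0.1 CPM and was less certain.

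log2(CPM + 1) was fitted with limma 3.58.1 (R 4.3.3) as 5 cells over all libraries, with a trended empirical Bayes variance, for the 5672 genes averaging 1 CPM or more, and p-values were adjusted by Benjamini-Hochberg over them. All 8 members passed that filter, so the exact permutation test planned for members below it was not needed. The scripts were tested on simulated data. edgeR 4.0.16 on the recovered reads was an alternative. Others were the pseudocount, the minimum mean, 2 scalings, all 8 controls, single libraries left out and a replicate block. p-values measure the spread between these mice. No 2 libraries of a group agreed within counting noise. Intervals on reads cover counting error only.

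The members and gene lists were chosen with earlier results of these data known. Named list genes are the 2 largest changes per direction and injury, and any gene of the early gene list. One gene that this rule names is not reported here.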

Additional observations from a re-analysis of the deposited data

Results flagged for a closer look

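Of 32 groups of libraries (8 members in 4 groups), 3 held a value far from the others, where chance gives about 1.6. Divided by the range of its group, the distance to the next library came to 1 for Fosl1 in control 3, which is 1 read against none, 0.644 for Egr2 in control 1, which is 3 reads, and 0.838 for Myc in cisplatin mouse 2 (57.6 CPM against 38.7 to 41.8).

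Effects that differed between injuries were found by the limma test of the difference. For IRI minus rhabdomyolysis the log2 values were −2.11 for Fos, −2.43 for Fosb, −3.85 for Fosl1, −1.14 for Jun, −1.52 for Junb, −2.42 for Egr1, −2.09 for Egr2 and −1.45 for Myc. For IRI minus cisplatin they were −2.32 for Fos, −3.26 for Fosb, −2.90 for Fosl1, −1.61 for Junb, −2.81 for Egr1, −1.62 for Egr2 and −0.80 for Myc. For rhabdomyolysis minus cisplatin they were −0.83 for Fosb, 0.95 for Fosl1, 0.63 for Jun and 0.65 for Myc.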

How the results depend on the processing

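In every alternative run, all members tested were called higher in rhabdomyolysis and cisplatin and 7 in IRI, except that all 8 passed in IRI against all 8 controls. With a minimum mean of 5 CPM, Fosb was not tested, so 0 members were lower in rhabdomyolysis than in cisplatin. Between the control ranges, a pseudocount of 0.1 CPM called 2 genes, both members (Fos and Fosb); leaving out single controls gave 0 to 5 genes (5 without control 4) and no member. Signs that turned belonged to differences that did not pass: Junb between rhabdomyolysis and cisplatin (0.00794 with 75th percentile scaling, 0.076 after quantile normalization, 0.021 without rhabdomyolysis mouse 4, and −0.19 to 0.021 over single mice left out), Fosb in IRI (−0.0702 after quantile normalization) and Egr1 between the control ranges (0.0902 without control 3, and −0.35 to 0.0902 over single mice left out). The cause was not tested. With the replicate number as a block, 4411 genes passed in IRI and 2834 between rhabdomyolysis and cisplatin, beside 4472 and 2929 in the same groups without it, and no member's call changed. Deviations of same-numbered mice correlated from −0.207 to 0.325. With so few mice per group, these values cannot settle whether the numbers pair the mice. Added after the data were seen, edgeR without cisplatin mouse 2 lost the Myc difference between IRI and cisplatin (edgeR adjusted p 0.0648) and gained that of Egr2 between rhabdomyolysis and cisplatin (0.79, edgeR adjusted p 0.0226). Folds of mean CPM with each library left out, also added then, moved by over 1.5 times only for Egr2 in IRI without control 1, among those whose controls held reads. Fosb, Egr2 and Fosl1, and Fos in controls 5 to 8, rest on 0 to 4 reads per control library, which limits their folds to bounds or wide intervals.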
